A study of Homo sapiens with 9 samples.

Results

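The mitochondrial ribosomal protein genes were examined in Daudi cells, a human B-lymphoid line derived from a Burkitt lymphoma in which MYC is joined to an immunoglobulin locus. They were taken as the genes with an array probe set of exactly 1 symbol beginning with MRPL or MRPS and a number, leaving out hyphenated symbols and pseudogenes. Where a gene had several such probe sets, the brightest by its average on the 9 arrays stood for it. This gave 75 of 19775 genes, 48 with MRPL symbols (large subunit) and 27 with MRPS symbols (small subunit), and all 75 passed the filter on low signal. RefSeq lists 77 genes under the same rule. MRPS24 and MRPL53, the other two, were read only by probe sets that carry several symbols, and are not counted.

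There were 3 arrays of cells with a hairpin against MYC (C-Myc-sh), 3 with a hairpin against SLC7A5 (Slc7a5-sh) and 3 with a control hairpin (Ctrl-sh). All 9 samples grew in RPMI medium with fetal bovine serum and L-glutamine, and after infection all were kept in puromycin for 48 h. The SLC7A5 protein carries leucine and other large neutral amino acids into cells, and the study took the C-Myc-sh cells as its positive control. The titles call the replicates biological without saying whether they came from separate infections, so p-values measure the spread between these samples, and neither the hairpin sequences nor their number per target is given in the sources used here.

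The mitochondrial ribosome stands in the mitochondrial matrix and translates the few messenger RNAs that mitochondrial DNA encodes, all of them for subunits of the respiratory chain and ATP synthase. Its RNAs come from mitochondrial DNA, while its proteins are encoded in the nucleus, made on cytosolic ribosomes and imported. Some descend from bacterial ribosomal proteins and others were added in the mitochondrial lineage, and MYC is known to drive many genes of ribosome and mitochondrial biogenesis.

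Values are MAS5 signals on the log2 scale, scaled by the authors to the same array average, so that a change in the total RNA of a cell cannot be read from them. A gene was called where the limma adjusted p was under 0.05 over 11250 tested genes. Array medians lay between 6.05 and 6.26, and pairs of arrays of 1 group correlated at 0.972 to 0.977 across genes. MYC had 46.9% of its Ctrl-sh signal in C-Myc-sh (log2 change -1.09) and 78.7% in Slc7a5-sh (-0.35). SLC7A5 had 75.4% in C-Myc-sh (-0.41) and 80.0% in Slc7a5-sh (-0.32), and all of these were called. Of 6 B-cell markers 5 were measured and all 5 passed the filter, against 1 of 6 markers of T and NK cells, 0 of 5 of myeloid cells and 3 of 5 of epithelial cells and fibroblasts. The summed linear signal of the B-cell markers was 36458 to 39946 in C-Myc-sh, 24598 to 25444 in Slc7a5-sh and 27001 to 30356 in Ctrl-sh. PAX5 had the highest signal among them, with means of 14.24 in C-Myc-sh, 12.98 in Slc7a5-sh and 13.62 in Ctrl-sh, while CD22 went the other way in C-Myc-sh, with 8.55 in C-Myc-sh, 9.17 in Slc7a5-sh and 9.80 in Ctrl-sh. The sum of 4 germinal centre markers was 13285 to 14463 in C-Myc-sh, 16446 to 20037 in Slc7a5-sh and 19521 to 20954 in Ctrl-sh. CR2, one of the 4, went against that sum in C-Myc-sh, with a mean of 10.66 there and 9.58 in Ctrl-sh. The part of these markers in the results was not tested.

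In C-Myc-sh against Ctrl-sh, 55 of the 75 genes fell, 1 rose (MRPS33) and 19 were not called. Of all tested genes 26.2% were called lower and 28.7% higher in that comparison. The median log2 change of the members was -0.35 against 0.04 for all tested genes, and their changes ran between -1.35 and 0.35. In 58 members all 3 C-Myc-sh arrays lay below all 3 Ctrl-sh arrays, a pattern that 29.1% of all tested genes showed. Large subunit genes had 37 of 48 lower and 0 higher with a median of -0.40. Small subunit genes had 18 of 27 lower and 1 higher with a median of -0.25.

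**Figure D1:**
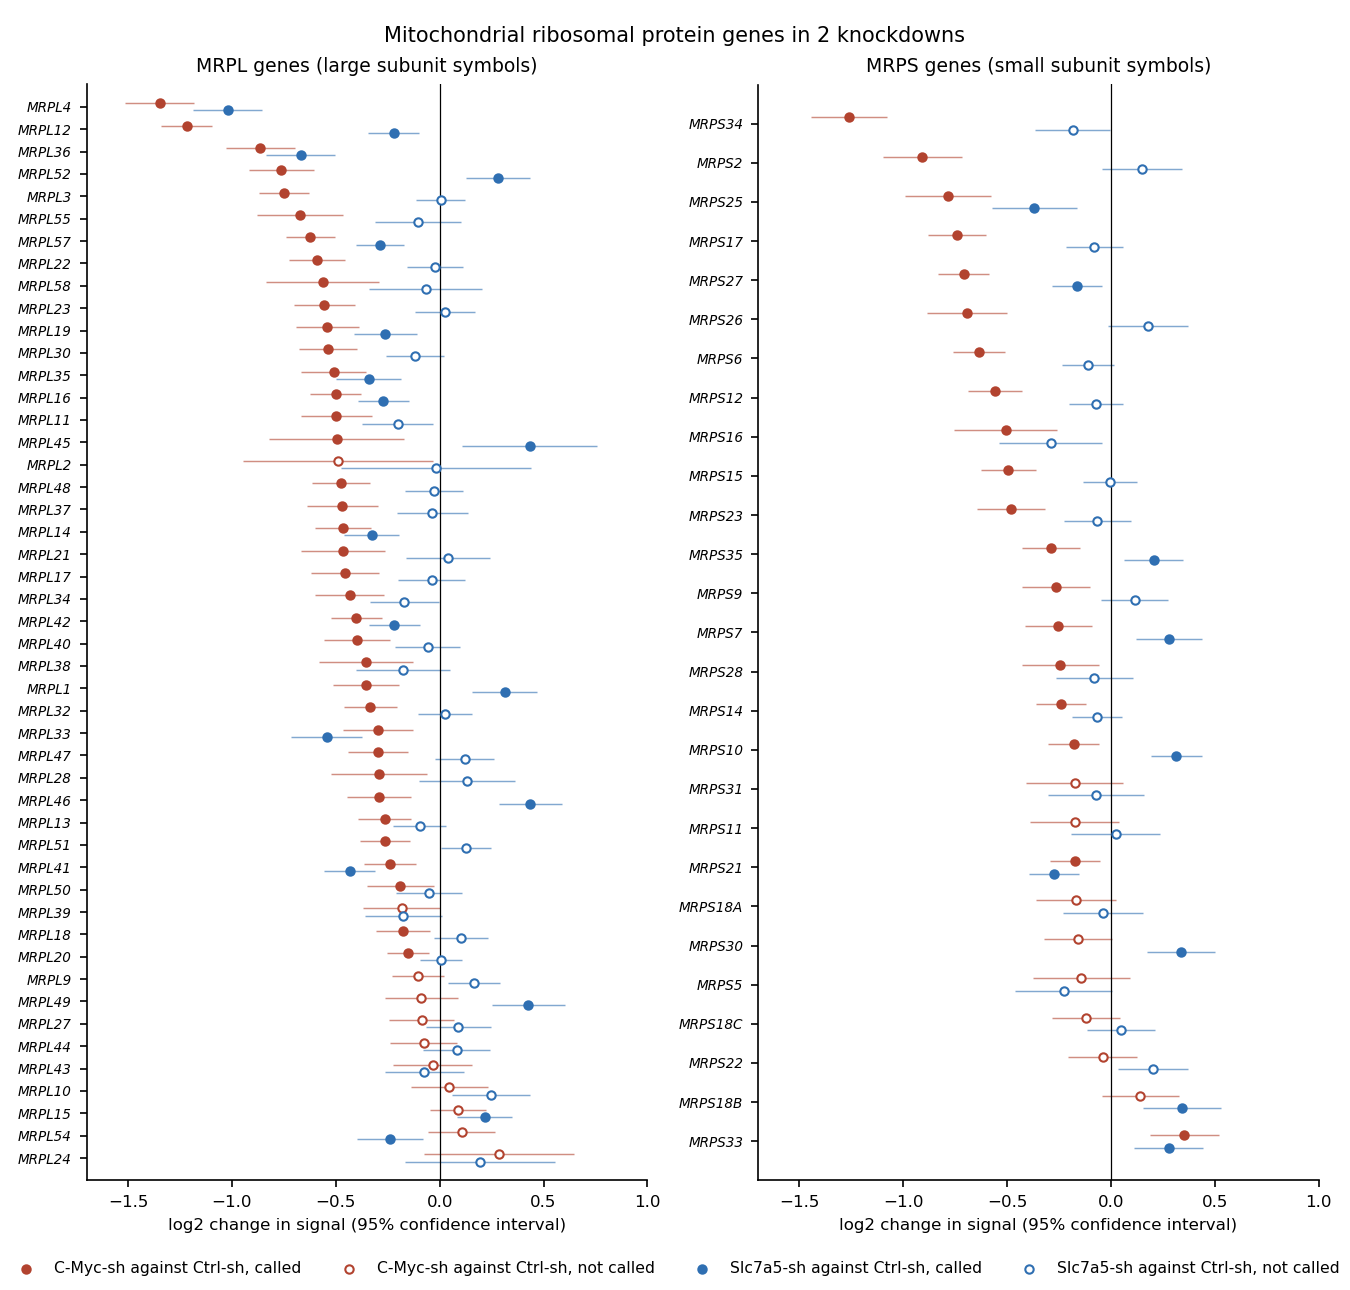
Log2 change of each of the 75 genes (horizontal axis, with 95% confidence intervals) in C-Myc-sh against Ctrl-sh (red) and Slc7a5-sh against Ctrl-sh (blue), for the MRPL genes on the left and the MRPS genes on the right, ordered by the C-Myc-sh change. Filled points were called and open points were not: 55 red points were called below 0 and 1 above, while 15 blue points were called below 0 and 12 above.

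Among the large subunit genes MRPL4 had the lowest change in C-Myc-sh. It encodes uL4m, a protein that lines the tunnel through which the nascent chain leaves. Its log2 signals were 10.12, 10.23 and 10.26 in C-Myc-sh, against 11.51, 11.60 and 11.55 in Ctrl-sh. The groups lay more than 1 log2 unit apart, and MRPL4 fell to 39.3% of its Ctrl-sh signal (log2 change -1.35, SE 0.08, limma adjusted p = 1.91e-09). A second probe set of MRPL4 gave -1.29 and was called, while the third gave -0.20 and was not.

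MRPL12 encodes bL12m, which forms the flexible stalk that receives translation factors, and which has also been described as a partner of the mitochondrial RNA polymerase. It had 10.92, 10.99 and 10.93 in C-Myc-sh, against 12.20, 12.13 and 12.16 in Ctrl-sh. The arrays within each group lay close together, and MRPL12 fell to 43.0% (log2 change -1.22, SE 0.06, limma adjusted p = 2.71e-10). Its other probe set gave -0.66 and was not called.

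MRPL36, for bL36m, had 12.22, 12.19 and 12.20 in C-Myc-sh, against 13.06, 13.09 and 13.06 in Ctrl-sh, and fell by 0.86 on the log2 scale (SE 0.08). MRPL52, for a protein without a bacterial counterpart, had 11.19, 11.22 and 11.12 in C-Myc-sh, against 11.86, 12.09 and 11.87 in Ctrl-sh, and fell by 0.76 (SE 0.07). In neither gene did the groups overlap, and both had a limma adjusted p under 0.05 (2.25e-07 and 4.14e-07). The other probe set of MRPL52 gave -0.20 and was not called.

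Among the small subunit genes MRPS34, which encodes mS34, a protein added in the mitochondrial lineage, had the lowest change. Its log2 signals were 10.67, 10.43 and 10.45 in C-Myc-sh, against 11.81, 11.75 and 11.77 in Ctrl-sh. All C-Myc-sh arrays were more than 1 log2 unit below the Ctrl-sh arrays, and MRPS34 fell to 41.7% (log2 change -1.26, SE 0.08, limma adjusted p = 1.02e-08).

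MRPS2, which encodes uS2m, had 10.34, 10.16 and 10.36 in C-Myc-sh, against 11.26, 11.29 and 11.03 in Ctrl-sh. MRPS25, which encodes mS25, had 10.66, 10.41 and 10.53 in C-Myc-sh, against 11.16, 11.52 and 11.27 in Ctrl-sh. MRPS17, which encodes the RNA-binding protein uS17m, had 11.40, 11.41 and 11.50 in C-Myc-sh, against 12.14, 12.23 and 12.17 in Ctrl-sh. Each of these genes was lower on every C-Myc-sh array, and the log2 changes were -0.91 for MRPS2, -0.79 for MRPS25 and -0.74 for MRPS17 (SE 0.06 to 0.10, limma adjusted p = 5.62e-06 or smaller).

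MRPS33, which encodes mS33 of the small subunit head, was the gene that rose. It had 12.24, 12.34 and 12.45 in C-Myc-sh, against 12.17, 11.90 and 11.90 in Ctrl-sh. The groups did not overlap, although the first Ctrl-sh array came close to the lowest C-Myc-sh array, and the log2 change was 0.35 (SE 0.08, limma adjusted p = 0.00128). Without the second C-Myc-sh array the count of members called higher was 2 in place of 1, the added gene being MRPL24 (0.52).

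**Figure D2:**
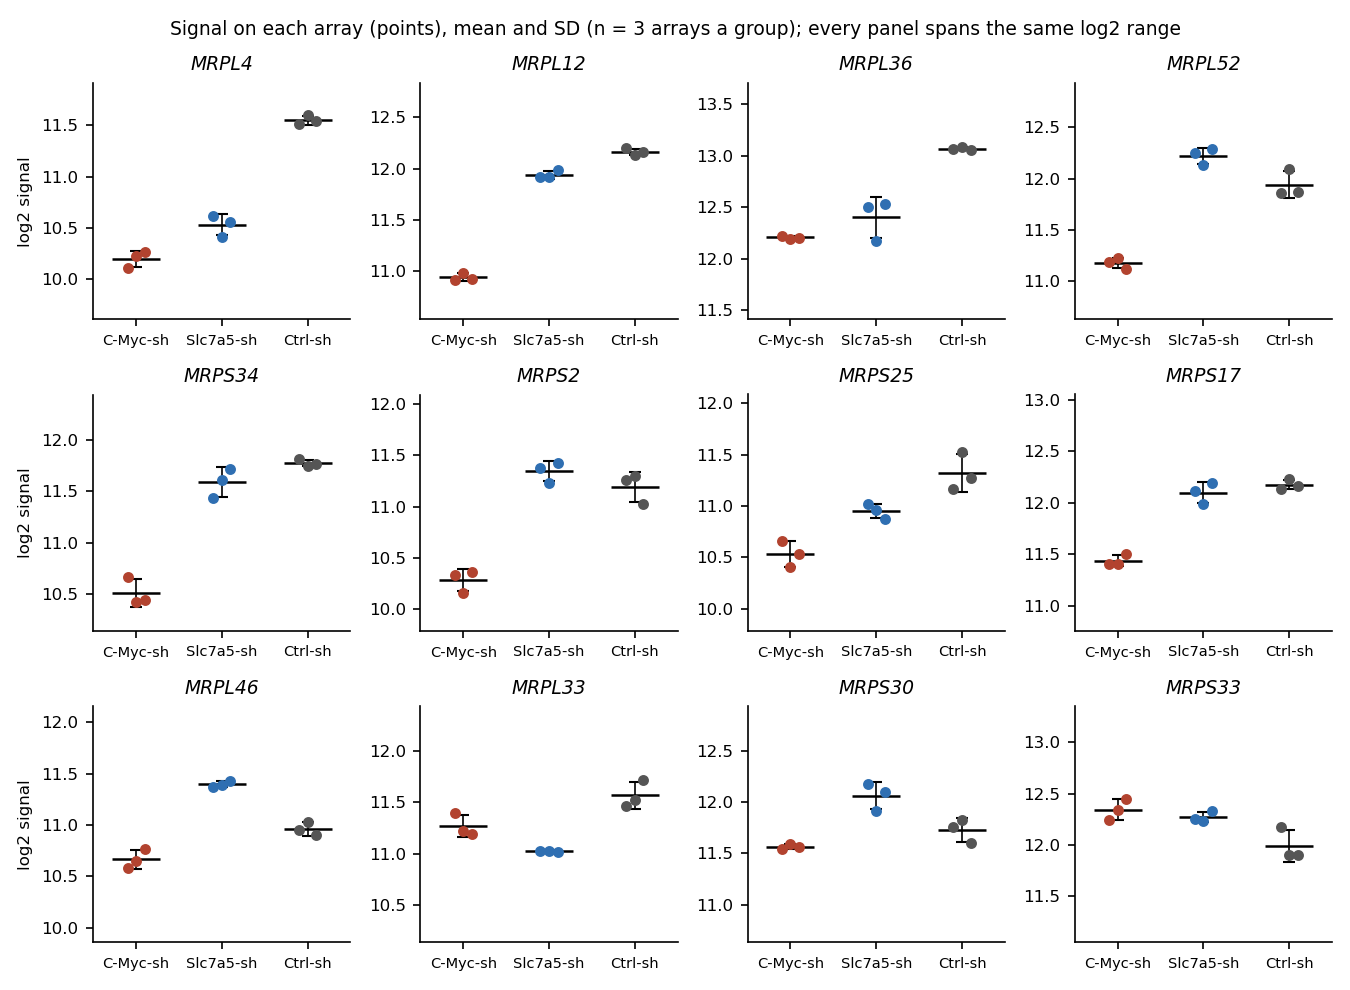
Log2 signal of 12 members on each array (points), with the mean (long bar) and SD (error bar) of the 3 arrays of C-Myc-sh, Slc7a5-sh and Ctrl-sh in that order, every panel spanning the same log2 range. MRPL4 and MRPL36 lie below Ctrl-sh in both knockdowns, MRPL12, MRPS34, MRPS2 and MRPS17 lie well below both other groups in C-Myc-sh, and MRPL46 and MRPL52 lie below Ctrl-sh in C-Myc-sh and above it in Slc7a5-sh.

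A few further members are given as examples, picked for their place on the ribosome after their values were seen, so that no count is drawn from them. MRPL3, for uL3m beside the peptidyl transferase centre, had a change of -0.75, with 13.43, 13.59 and 13.56 in C-Myc-sh against 14.34, 14.21 and 14.28 in Ctrl-sh. MRPL11, for uL11m at the base of the factor-binding stalk, changed by -0.50. MRPS12, for uS12m in the decoding centre, changed by -0.56. MRPL58, the release-factor-like hydrolase that is built into the large subunit, changed by -0.56 with a wider error (SE 0.13). These 4 were called in limma, whereas MRPS5, for uS5m, had -0.14 (SE 0.11) and was not called. A second probe set of MRPS5 gave -0.33 and was called lower, while its further ones gave 0.39 and 0.38 and were not called. With its probe sets averaged MRPS12 changed by -0.30 and was not called.

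The 19 genes that were not called had changes between -0.49 and 0.29. The edges of that range were the least precise members. MRPL2, for uL2m, had a change of -0.49 with a 95% confidence interval of -0.95 to -0.03 (SE 0.21, limma adjusted p = 0.0661). MRPL24, for uL24m, had 0.29 (SE 0.17), and its C-Myc-sh signals of 10.95, 10.31 and 11.09 overlapped the 10.57, 10.73 and 10.19 of Ctrl-sh. Neither change passed the threshold on the adjusted p, and both calls depended on single arrays. MRPL2 was called without the second Ctrl-sh array (-0.73), and MRPL24 without the second C-Myc-sh array (0.52). The other probe set of MRPL2 gave -0.51 and was not called. MRPL15, MRPL43 and MRPS22 gave 0.09, -0.03 and -0.04 with SEs of 0.06 to 0.09.

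Counts by descent were set beside those by subunit. All tested genes had 26.2% called lower and 28.7% called higher in C-Myc-sh against Ctrl-sh, with a median of 0.04. Large subunit genes with a bacterial counterpart had 24 of 30 lower (median -0.46) in C-Myc-sh against Ctrl-sh, and those without had 13 of 18 lower (median -0.32). Small subunit genes with a bacterial counterpart had 12 of 15 lower (median -0.25), and those without had 6 of 12 lower and 1 higher (median -0.23). MRPS18A and MRPS18B, human relatives of bacterial S18, were counted among those without, and neither was called. The counts by descent depend on that choice. The proteins of MRPS30 and MRPS18A lie in the large subunit despite their symbols, and counting them there gave medians of -0.38 for 50 large subunit genes and -0.26 for 25 small subunit genes. Differences between such lists were not tested, since genes of a list are not replicates.

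Promoter sequences from 250 bases before to 50 bases after the start site, on GRCh38.p14, were present for 67 of the 75 genes in the promoter set used here. They were searched on both strands for CACGTG, the canonical E-box that MYC binds with its partner MAX, for CCGGAAG, a motif of ETS factors such as GABPA, and for TGCGCA, the core of the NRF1 motif. The first and the last read the same on both strands, and matches to them can overlap at their outer bases. Of the 67 promoters 6 held the E-box (8.96%, against 8.88% of all 15842 promoters), 28 held the ETS motif (41.8%, against 14.2%) and 14 held the NRF1 core (20.9%, against 10.8%). Of the 37 ETS matches 21 began in the 50 bases just before the start site, where 28.4% of members and 5.95% of all promoters had a match.

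The promoters of MRPS34, MRPL36, MRPL12 and MRPL4 are shown because they hold different sets of the motifs and their genes are among those that fell most in C-Myc-sh. The promoters of MRPS2 and MRPS25, which fell by 0.91 and 0.79, had 0 matches, as had MRPL4, and are not printed. The region of MRPS34 is chr16:1773085-1773384 (minus strand), that of MRPL36 chr5:1799788-1800087 (minus strand), that of MRPL12 chr17:81703117-81703416 (plus strand) and that of MRPL4 chr19:10251701-10252000 (plus strand). Each is written 5′ to 3′ on the strand of the gene, the last 50 letters are the start of the transcript, and capitals mark matches to the 3 motifs. The capitals of MRPS34 are 3 ETS motifs, all read on the other strand. Those of MRPL36 are an NRF1 core, an E-box that begins at -56 and a further NRF1 core past the start site. MRPL12 has 1 NRF1 core, which begins at -67, and MRPL4 has 0 matches.
MRPS34: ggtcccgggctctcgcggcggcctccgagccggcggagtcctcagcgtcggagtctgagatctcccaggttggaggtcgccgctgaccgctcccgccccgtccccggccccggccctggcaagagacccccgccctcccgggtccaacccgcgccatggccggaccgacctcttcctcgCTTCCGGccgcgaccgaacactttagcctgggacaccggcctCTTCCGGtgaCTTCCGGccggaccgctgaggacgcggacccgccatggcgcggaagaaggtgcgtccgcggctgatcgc
MRPL36: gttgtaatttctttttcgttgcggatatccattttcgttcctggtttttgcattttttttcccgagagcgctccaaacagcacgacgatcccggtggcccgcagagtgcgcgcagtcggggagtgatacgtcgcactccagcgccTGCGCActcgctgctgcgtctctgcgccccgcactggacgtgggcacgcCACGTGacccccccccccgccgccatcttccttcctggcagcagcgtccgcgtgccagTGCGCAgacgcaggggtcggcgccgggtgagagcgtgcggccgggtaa
MRPL12: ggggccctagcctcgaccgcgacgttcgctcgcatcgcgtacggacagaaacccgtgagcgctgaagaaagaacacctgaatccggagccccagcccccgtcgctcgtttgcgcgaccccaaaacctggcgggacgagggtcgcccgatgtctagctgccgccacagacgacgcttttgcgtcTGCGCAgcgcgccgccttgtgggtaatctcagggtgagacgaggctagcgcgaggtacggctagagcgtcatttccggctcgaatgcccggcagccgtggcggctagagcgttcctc
MRPL4: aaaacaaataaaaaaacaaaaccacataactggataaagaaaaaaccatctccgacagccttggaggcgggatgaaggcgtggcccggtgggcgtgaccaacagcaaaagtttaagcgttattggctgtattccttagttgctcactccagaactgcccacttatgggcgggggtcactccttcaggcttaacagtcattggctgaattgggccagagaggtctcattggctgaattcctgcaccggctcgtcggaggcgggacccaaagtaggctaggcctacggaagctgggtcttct

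Motif matches were then set beside the calls in C-Myc-sh. The E-box stood in 8.0% of the 50 promoters of members called lower in C-Myc-sh, and in 11.8% of the 17 other promoters. The ETS motif stood in 40.0% and 47.1%, and the NRF1 core in 22.0% and 17.6%. Genes with an E-box were MRPL22, MRPL36, MRPL37, MRPL45, MRPL49 and MRPS18C, with a median log2 change of -0.48 in C-Myc-sh, against -0.33 for the 61 without one. Genes with the ETS motif had a median of -0.30, against -0.40 for the 39 without. Genes with the NRF1 core had a median of -0.43, against -0.30 for the 53 without. A match of letters is a description of these windows and not a test of binding.

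**Figure D3:**
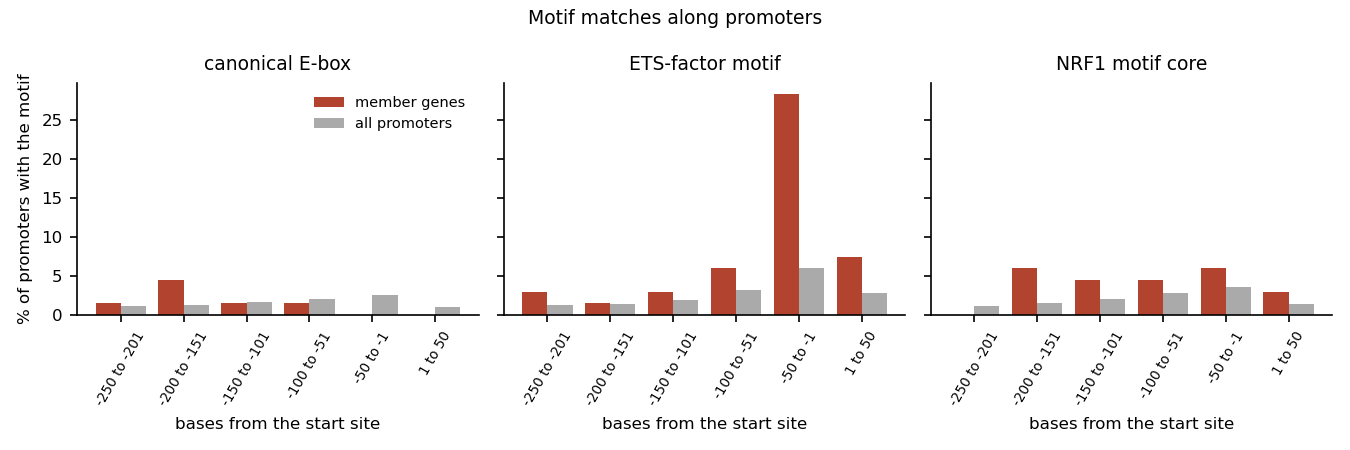
Share of promoters (vertical axis, %) with a match to each of 3 motifs in windows of 50 bases along the promoter (horizontal axis, bases from the start site), for the 67 members with a promoter sequence (red) and all 15842 promoters (grey). The ETS-factor motif has its highest share of members, 28.4%, in the 50 bases before the start site, against 5.95% of all promoters.

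In Slc7a5-sh against Ctrl-sh the genes moved in both directions. Of the 75 genes 15 fell, 12 rose and 48 were not called, where 11.0% of all tested genes were called lower and 14.3% higher. The median log2 change was -0.04, against 0.03 for all tested genes, with a range of -1.02 to 0.44. Large subunit genes had 12 lower and 6 higher, small subunit genes had 3 lower and 6 higher, and both medians were -0.04. The count of higher members fell to 7 when the second Ctrl-sh array was left out, and likewise to 7 without the third.

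MRPL4 also had the lowest change here, with log2 signals of 10.61, 10.42 and 10.56 in Slc7a5-sh, against 11.51, 11.60 and 11.55 in Ctrl-sh. It fell to 49.3% (log2 change -1.02, SE 0.08, limma adjusted p = 9.56e-07) with no overlap between groups. Its second probe set gave -0.98 and was called, but the third gave 0.17, the other direction, and was not called.

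MRPL36 had 12.50, 12.17 and 12.53 in Slc7a5-sh, against 13.06, 13.09 and 13.06 in Ctrl-sh, a log2 change of -0.67 (SE 0.08). MRPL33, for the small protein bL33m, had 11.03, 11.03 and 11.01 in Slc7a5-sh, against 11.46, 11.52 and 11.72 in Ctrl-sh, a change of -0.54 (SE 0.08). MRPL41, for the mitochondria-specific mL41, had 11.86, 11.79 and 11.78 in Slc7a5-sh, against 12.23, 12.22 and 12.28 in Ctrl-sh, a change of -0.43 (SE 0.06). All 3 genes were called in limma and none had overlapping groups.

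The 3 small subunit genes that fell in Slc7a5-sh did so by less. MRPS25 had 11.02, 10.96 and 10.88 in Slc7a5-sh, against 11.16, 11.52 and 11.27 in Ctrl-sh (log2 change -0.37, SE 0.10, limma adjusted p = 0.0113), and without the second Ctrl-sh array the change was -0.27 and no longer called. MRPS21, for bS21m, had 12.43, 12.44 and 12.41 in Slc7a5-sh, against 12.77, 12.65 and 12.69 in Ctrl-sh (log2 change -0.28, SE 0.06, limma adjusted p = 0.0025). MRPS27, a pentatricopeptide repeat protein of the small subunit, had 11.99, 11.89 and 11.89 in Slc7a5-sh, against 12.09, 12.07 and 12.10 in Ctrl-sh. Its change of -0.16 (SE 0.06, limma adjusted p = 0.0486) stood at the threshold and kept the call in 1 of the 9 fits that leave out an array, the one without the first Slc7a5-sh array. It was also lost with the replicate number as a block (adjusted p = 0.0671) and with only the 6 arrays compared (adjusted p = 0.0662).

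MRPL46, which encodes mL46, had the highest change in Slc7a5-sh. Its log2 signals were 11.37, 11.39 and 11.42 in Slc7a5-sh, against 10.95, 11.03 and 10.90 in Ctrl-sh. The Slc7a5-sh arrays were all above the Ctrl-sh arrays, and MRPL46 rose by 0.44 (SE 0.07, limma adjusted p = 0.000511).

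MRPL45 encodes mL45, which lies at the exit of the tunnel and holds the ribosome to the inner membrane. It had 10.26, 10.51 and 10.57 in Slc7a5-sh, against 10.03, 10.14 and 9.87 in Ctrl-sh. The groups did not overlap, and its change of 0.43 (SE 0.15, limma adjusted p = 0.0498) was called by a small margin. The call was lost when any of 6 arrays was left out, with changes of 0.36 to 0.49, and also with the replicate number as a block (adjusted p = 0.0623). MRPL49, for mL49, had 11.76, 11.91 and 12.08 in Slc7a5-sh, against 11.53, 11.50 and 11.43 in Ctrl-sh, and rose by 0.43 (SE 0.08, limma adjusted p = 0.00156).

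Of the small subunit symbols MRPS18B, MRPS30 and MRPS10 had the highest changes in Slc7a5-sh. MRPS18B, a human relative of bacterial S18, had 11.67, 11.38 and 11.51 in Slc7a5-sh, against 11.24, 11.03 and 11.26 in Ctrl-sh (log2 change 0.34, SE 0.09, limma adjusted p = 0.00966). Its call was lost without the first Slc7a5-sh array (0.27) or the second Ctrl-sh array (0.27). MRPS30, whose protein lies in the large subunit, had 12.18, 11.91 and 12.09 in Slc7a5-sh, against 11.76, 11.82 and 11.60 in Ctrl-sh (0.34, SE 0.08, limma adjusted p = 0.00484). The other two probe sets of MRPS30 went the other way in Slc7a5-sh, with called changes of -0.52 and -0.48, so its direction depends on the probe set. MRPS10, for uS10m of the head, had 12.06, 12.10 and 12.13 in Slc7a5-sh, against 11.82, 11.74 and 11.79 in Ctrl-sh (0.31, SE 0.06, limma adjusted p = 0.00109).

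The calls of the 2 knockdowns, which share their Ctrl-sh arrays, crossed as follows. Of the 55 genes that fell in C-Myc-sh, 14 also fell in Slc7a5-sh (25.5%), 7 rose there (12.7%) and 34 were not called there. Of all 2944 tested genes that fell in C-Myc-sh, 27.9% fell and 5.71% rose in Slc7a5-sh, and since the arrays are shared nothing is read from these overlaps. The 14 were 11 of the 48 MRPL genes and 3 of the 27 MRPS genes. Of the 19 genes not called in C-Myc-sh, 4 rose in Slc7a5-sh (MRPL49, MRPL15, MRPS30 and MRPS18B), 1 fell (MRPL54) and 14 were not called. The other probe sets of MRPS30 were called lower in C-Myc-sh. Among all tested genes not called in C-Myc-sh, 6.64% rose and 5.91% fell in Slc7a5-sh. Among all tested genes that rose in C-Myc-sh, 34.0% also rose in Slc7a5-sh, and nothing is read from these shares either. MRPS33 rose in both, with 12.25, 12.23 and 12.33 in Slc7a5-sh and a change of 0.28 (SE 0.08, limma adjusted p = 0.0165). That call was lost without the third Slc7a5-sh array (0.25) and without the second or the third Ctrl-sh array (0.23 each). The call of MRPL15 was lost without the first Slc7a5-sh array (0.19) and without the second (0.20) or the third Ctrl-sh array (0.19).

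The genes that fell in C-Myc-sh and rose in Slc7a5-sh were MRPL52, MRPL45, MRPL46, MRPL1, MRPS7, MRPS35 and MRPS10. For MRPL52 the changes were -0.76 in C-Myc-sh and 0.28 in Slc7a5-sh, where it had 12.25, 12.13 and 12.28. The rise was not called without the first or the third Ctrl-sh array (0.24 and 0.25). The other probe set of MRPL52 gave -0.20 in C-Myc-sh and 0.29 in Slc7a5-sh, and was called in neither. The rise of MRPS35 was not called without the first or the third Slc7a5-sh array (0.20 each), nor without the second (0.18) or the third Ctrl-sh array (0.16). MRPL1 encodes uL1m of the mobile stalk by which spent transfer RNA leaves. It had 10.78, 10.94 and 10.87 in C-Myc-sh and 11.56, 11.41 and 11.63 in Slc7a5-sh, against 11.18, 11.25 and 11.23 in Ctrl-sh. The Ctrl-sh arrays lay between those of the knockdowns with no overlap, and the changes were -0.35 and 0.31 (SE 0.07 each, limma adjusted p = 0.000797 and 0.00622).

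MRPS7 encodes uS7m, an early binder of the small subunit RNA. It had 11.24, 11.02 and 11.12 in C-Myc-sh and 11.72, 11.54 and 11.73 in Slc7a5-sh, against 11.42, 11.35 and 11.38 in Ctrl-sh. Its changes were -0.25 and 0.28 (SE 0.07 each), and the first was not called without the second C-Myc-sh array (-0.20), the second not without the first Slc7a5-sh array (0.25). MRPL46 changed by -0.29 in C-Myc-sh with 10.58, 10.65 and 10.77, MRPL45 by -0.50 with 9.87, 9.15 and 9.53. The MRPL45 fall was lost without the second C-Myc-sh array (-0.31) or the second Ctrl-sh array (-0.43). MRPS10 changed by -0.18 in C-Myc-sh, a call lost without the third C-Myc-sh array (-0.16) or the first Ctrl-sh array (-0.16).

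The direct comparison set C-Myc-sh against Slc7a5-sh, with the Ctrl-sh arrays entering through the variance and the tested genes. It gave 50 members lower, 3 higher and 22 not called, where 25.1% of all tested genes were called lower and 24.4% higher. The median log2 difference was -0.34, against 0.03 for all tested genes. Large subunit genes had 33 lower and 3 higher (median -0.31), and small subunit genes had 17 lower and 0 higher (median -0.42). MRPS34 and MRPS2 had the lowest differences of the small subunit, at -1.08 and -1.06 (SE 0.08 and 0.09), where MRPS2 had 10.34, 10.16 and 10.36 in C-Myc-sh and 11.38, 11.23 and 11.42 in Slc7a5-sh. MRPL52 was lower by 1.04 and MRPL12 by 1.00. MRPL36 had a difference of -0.19 at the threshold (SE 0.08, limma adjusted p = 0.0499), and its call was lost when any array but the second Slc7a5-sh array was left out (-0.20 to -0.13), and with only the 6 arrays compared (adjusted p = 0.0836).

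The members that were higher in C-Myc-sh than in Slc7a5-sh were MRPL54, MRPL33 and MRPL41. MRPL54, for mL54, had 11.25, 11.21 and 11.31 in C-Myc-sh and 10.84, 10.85 and 11.04 in Slc7a5-sh, a difference of 0.34 (SE 0.07, limma adjusted p = 0.00135). Its Ctrl-sh signals of 11.10, 11.11 and 11.23 overlapped those of C-Myc-sh, and its fall of -0.24 in Slc7a5-sh against Ctrl-sh was lost without the first or second Slc7a5-sh array or the second or the third Ctrl-sh array. MRPL33 differed by 0.25 (SE 0.08, limma adjusted p = 0.0177), a call lost without the first C-Myc-sh array (0.18). MRPL41 differed by 0.19 (SE 0.06, limma adjusted p = 0.0112), a call lost without the third C-Myc-sh array (0.17). MRPL33 and MRPL41 were below Ctrl-sh in both knockdowns.

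Medians taken over the members of a subunit on each array showed the same arrangement. Over the 48 MRPL genes the median log2 signal was 11.35, 11.31 and 11.40 in C-Myc-sh, 11.73, 11.72 and 11.82 in Slc7a5-sh and 11.80, 11.80 and 11.82 in Ctrl-sh. Over the 27 MRPS genes it was 11.44, 11.53 and 11.55 in C-Myc-sh, 11.91, 11.89 and 11.96 in Slc7a5-sh and 12.01, 11.82 and 11.79 in Ctrl-sh. The C-Myc-sh arrays were below all others in both subunits, and the Slc7a5-sh and Ctrl-sh arrays overlapped in both. The median over all tested genes was 9.75 to 9.77 in C-Myc-sh, 9.67 to 9.69 in Slc7a5-sh and 9.62 to 9.65 in Ctrl-sh, which is the opposite order.

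Of 5 mitoribosomal proteins with other symbols 4 were tested, and 3 fell in C-Myc-sh, where 26.2% of all tested genes were called lower. GADD45GIP1, for a protein of the large subunit, had 10.61, 10.58 and 10.68 in C-Myc-sh, against 11.39, 11.46 and 11.60 in Ctrl-sh (log2 change -0.86, SE 0.08, limma adjusted p = 2.46e-07). With its probe sets averaged the change was 0.24 and was not called. CHCHD1, for mS37, changed by -0.32 and the GTP-binding protein DAP3 by -0.17, both lost as calls without the first Ctrl-sh array (-0.20 and -0.16), CHCHD1 also without the second C-Myc-sh array (-0.24) and DAP3 also without the first (-0.14). PTCD3, for mS39, had a change of 0.05 and was not called. In Slc7a5-sh 0 of the 4 were called, with changes of -0.25 to -0.03.

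Assembly factors of the mitoribosome moved in both directions. Of 27 tested, 10 fell and 4 rose in C-Myc-sh (median -0.25), and 4 fell and 6 rose in Slc7a5-sh (median 0.04). Over all tested genes 26.2% fell and 28.7% rose in C-Myc-sh, and 11.0% fell and 14.3% rose in Slc7a5-sh. C1QBP, a matrix protein needed for mitochondrial translation, had 12.19, 12.23 and 12.38 in C-Myc-sh, against 13.64, 13.51 and 13.54 in Ctrl-sh, a fall of 1.30 on the log2 scale (SE 0.06, limma adjusted p = 2.46e-10). MALSU1, which keeps the large subunit from joining too early, fell by 0.40 in C-Myc-sh. With its probe sets averaged it had -0.14 there and was not called. NSUN4, a methyltransferase of the small subunit RNA, rose by 1.11 and the endoribonuclease YBEY by 1.05 in C-Myc-sh, and NSUN4 rose by 0.45 and YBEY by 0.59 in Slc7a5-sh. With probe sets averaged the Slc7a5-sh changes were 0.41 for NSUN4 and 0.25 for YBEY, and neither was called. NGRN, which binds the large subunit RNA, rose in both (0.46 and 0.45), and RPUSD4, a pseudouridine synthase, was called in Slc7a5-sh (0.53) and not in C-Myc-sh (0.18).

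Of 15 tested translation factors 10 fell and 2 rose in C-Myc-sh (median -0.39), and 5 fell and 2 rose in Slc7a5-sh (median -0.11). The shares over all tested genes were 26.2% lower and 28.7% higher in C-Myc-sh, and 11.0% and 14.3% in Slc7a5-sh. TUFM, the elongation factor that brings aminoacyl-tRNA to the mitoribosome, had 12.23, 12.27 and 12.36 in C-Myc-sh and 12.78, 12.55 and 12.81 in Slc7a5-sh, against 13.17, 13.03 and 13.12 in Ctrl-sh. Both knockdowns lay below Ctrl-sh with no overlap, with changes of -0.82 and -0.39 (limma adjusted p = 1.45e-07 and 0.001). With its probe sets averaged TUFM had -0.44 in Slc7a5-sh and was not called there. TSFM, its exchange factor, changed by -0.65 in C-Myc-sh, and SLIRP, which protects mitochondrial messenger RNA, by -0.73. MTRFR, a factor for stalled mitoribosomes, changed by -0.75 in C-Myc-sh and -0.48 in Slc7a5-sh. With its probe sets averaged MTRFR had -0.68 in Slc7a5-sh and was not called there. The initiation factor MTIF2 rose in Slc7a5-sh (0.33) and was not called in C-Myc-sh (-0.07).

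Of 7 genes of mitochondrial transcription and DNA upkeep 3 fell and 2 rose in C-Myc-sh, and 0 fell and 3 rose in Slc7a5-sh. Among all tested genes 26.2% fell and 28.7% rose in C-Myc-sh, and 11.0% fell and 14.3% rose in Slc7a5-sh. TWNK, the mitochondrial DNA helicase, had 9.28, 9.34 and 9.22 in C-Myc-sh and 10.47, 10.36 and 10.57 in Slc7a5-sh, against 10.13, 9.98 and 9.97 in Ctrl-sh. Ctrl-sh lay between the knockdowns without overlap, with changes of -0.75 and 0.44 (limma adjusted p = 8.85e-06 and 0.00385). POLRMT, the mitochondrial RNA polymerase, fell by 0.66 in C-Myc-sh, and MTERF2 rose by 0.58. With its probe sets averaged POLRMT had -0.77 in C-Myc-sh and was not called. MTERF1 rose by 0.33 in C-Myc-sh, a call lost without the first (0.31) or second (0.31) C-Myc-sh array or the third Ctrl-sh array (0.28). TFAM, which packs mitochondrial DNA, rose by 0.18 in Slc7a5-sh, a call lost without the second (0.19) or the third (0.15) Slc7a5-sh array or any Ctrl-sh array (0.17 to 0.20). It was also lost with the replicate number as a block (adjusted p = 0.0517) and with only the 6 arrays compared (adjusted p = 0.0504).

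Of 7 tested nuclear regulators of mitochondrial genes 1 fell and 2 rose in C-Myc-sh, where 26.2% and 28.7% of all tested genes did. In Slc7a5-sh 0 were called in limma (1 at an unadjusted p under 0.05), where 11.0% of all tested genes were called lower and 14.3% higher. PPRC1, a coactivator of mitochondrial biogenesis, fell by 0.70 in C-Myc-sh. The coactivator PPARGC1B rose by 0.99 and the nuclear receptor ESRRA by 0.59. GABPA, a factor of the ETS motif above, had changes of 0.10 and -0.29 and was not called in either knockdown.

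Cytosolic ribosomal protein genes were set beside the members as the other ribosome of the cell. They were taken by symbol from probe sets of 1 symbol, which gave 56 genes, 55 of them tested. In C-Myc-sh against Ctrl-sh 14 of 55 were lower (25.5%, near the 26.2% of all tested genes) and 2 higher, with a median of -0.10. Called or not, 50 of the 55 changes were below 0, against 5319 of 11250 over all tested genes. The cytosolic genes had 1 lower and 4 higher in Slc7a5-sh (median 0.11). In the direct comparison 39 of the 55 were lower in C-Myc-sh than in Slc7a5-sh and 0 higher (median -0.24), beside 50 of 75 for the mitochondrial genes. Subunit genes of the respiratory complexes, some of whose partners the mitoribosome makes, had 23 of 73 lower and 16 higher in C-Myc-sh (median -0.06) and 16 lower and 5 higher in Slc7a5-sh (median -0.06). Over all tested genes 26.2% were called lower and 28.7% higher in C-Myc-sh, and 11.0% and 14.3% in Slc7a5-sh. In the direct comparison 25.1% of all tested genes were called lower and 24.4% higher. The difference between these lists and the members was not tested.

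**Figure D4:**
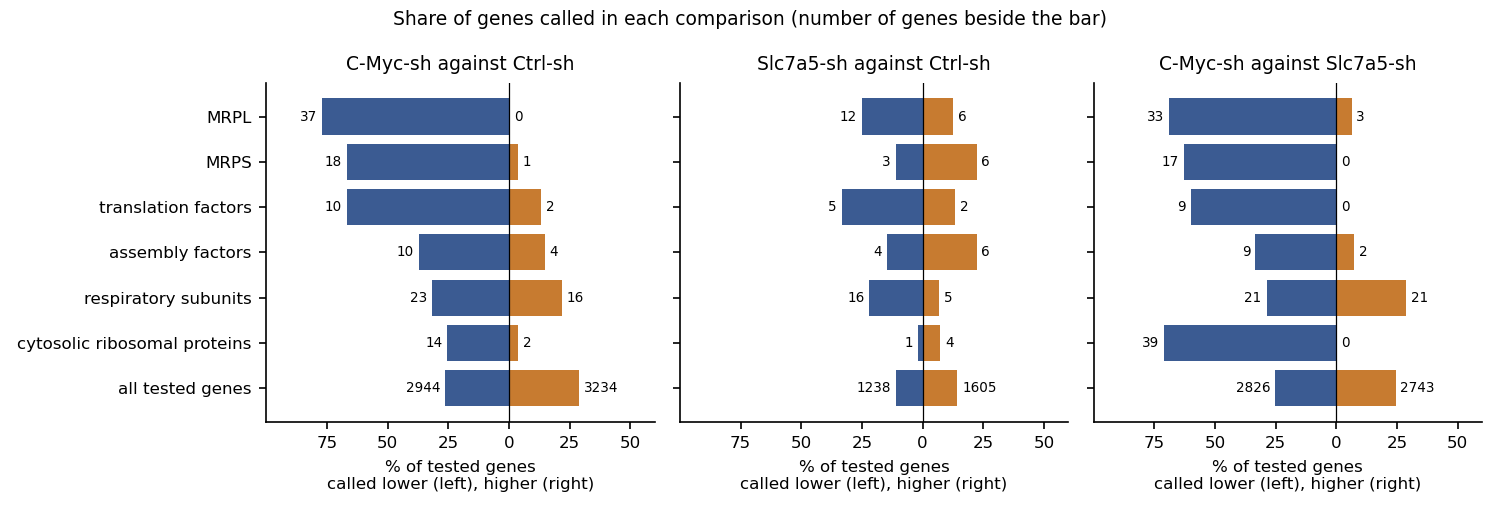
Share of tested genes (horizontal axis, %) called lower (left of 0) and higher (right of 0) in each comparison, with the number of genes beside each bar. The MRPL and MRPS genes have 37 and 18 lower in C-Myc-sh against Ctrl-sh, and the bars of Slc7a5-sh against Ctrl-sh extend to both sides, with 12 and 3 lower and 6 and 6 higher.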

How the data were processed

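The deposited table holds log2 signals of each probe set on each array, made by the authors with MAS5, per the submitters' processing notes, which give no version. The base of the logarithm follows from the values, since the mean of the linear signals, trimmed by 2% at each end, was 497 on each array. Symbols came from the platform annotation, which gives 41091 of 54613 probe sets 1 symbol, 1801 several and 11721 none. Genes were tested where their probe set averaged at least as high as the median probe set (5.77, 54.6 linear).

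R 4.3.3 and limma 3.58.1 fitted 3 group means over the 9 arrays (lmFit, then eBayes with trend; degrees of freedom 6 residual, 8.21 prior). Tests were two-sided, with p-values adjusted by Benjamini and Hochberg's method over the 11250 tested genes. Precision is limited by the number of arrays. Same-numbered arrays did not deviate together (correlations of -0.02 to 0.02), so no replicate block was used. Probe sets ending in _s_at or _x_at, which read 45 of the 75 members, can bind related transcripts.

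Members, gene lists and motifs were chosen with earlier results of these data known. The named members are, among called genes whose groups did not overlap, the 4 lowest MRPL and the 4 lowest MRPS genes of each knockdown and up to 3 highest of each. The highest and lowest of the direct comparison were taken in the same way. For members named by these rules the absence of overlap was therefore fixed by the choice. Those called in opposite directions were added, with the leading genes of each list. The others named were chosen after their values were seen. Alternatives covered quantile normalization, the filter, the variance model, the choice of probe set, the arrays in the fit, the block and leaving out each array.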

Additional observations from a re-analysis of the deposited data

Results flagged for a closer look

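Some members have further probe sets that the comparisons above did not use, and 7 of these lay above Ctrl-sh with an adjusted p under 0.05 in a limma fit over all probe sets that passed the filter. In C-Myc-sh they were probe sets of MRPL39 (log2 change 1.52, against -0.18, not called, for the one used), MRPL20 (0.94), MRPL30 (0.48) and MRPS14 (0.27). For MRPL20, MRPL30 and MRPS14 the probe set used was called lower in C-Myc-sh (-0.15, -0.54 and -0.24; for MRPL20 not without the second Ctrl-sh array, at -0.14), so these genes have called probe sets in both directions. In Slc7a5-sh they were 1 of MRPS10 (0.27) and 2 of MRPS22 (0.29 and 0.36). The probe set used for MRPS10 was also called higher (0.31), and that of MRPS22 had 0.20 and was not called. Over the 33 members with several probe sets past the filter, 42 of 59 further probe sets had the sign of the one used in C-Myc-sh against Ctrl-sh, and 40 of 59 in Slc7a5-sh against Ctrl-sh. The cause was not tested.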

How the results depend on the processing

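Of 222 recomputed counts and medians over the members, 200 stayed within 1.5 times the reported count or within 1 SD between arrays of the reported median. Part of that agreement was fixed in advance for the medians. Changing the variance model, the filter, the block or the arrays outside a comparison leaves the log2 changes of the members as they were. The 200 is therefore not a measure of stability. In C-Myc-sh against Ctrl-sh, members called higher (1) were 2 with quantile normalization, 2 with probe sets averaged per gene and 3 without _s_at and _x_at probe sets, which left 43 members. Members called lower (55) were 21 of those 43. The MRPL median (-0.40) was -0.32 with averaged probe sets and -0.32 without _s_at and _x_at probe sets. In Slc7a5-sh against Ctrl-sh, members called higher (12) were 5 with eBayes without trend. Members called lower (15) were 9 with averaged probe sets and 3 without _s_at and _x_at probe sets, where the MRPS median (-0.04) was 0.041. In C-Myc-sh against Slc7a5-sh, members called higher (3) were 5 with quantile normalization and 5 with averaged probe sets, where the MRPL median (-0.31) was -0.25 and -0.25. The MRPS median (-0.42) was -0.21 with averaged probe sets, and members called lower (50) were 22 of 43 without _s_at and _x_at probe sets.

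Leaving out each array in turn gave 49 to 55 lower and 1 to 2 higher in C-Myc-sh against Ctrl-sh, with MRPL medians of -0.43 to -0.36 and MRPS medians of -0.29 to -0.23. It gave 12 to 15 lower and 7 to 13 higher in Slc7a5-sh against Ctrl-sh, with medians of -0.07 to -0.01 and -0.08 to 0.02. It gave 45 to 53 lower and 2 to 3 higher in C-Myc-sh against Slc7a5-sh, with medians of -0.36 to -0.28 and -0.43 to -0.36. Of the members called, 46 of 56, 16 of 27 and 45 of 53 kept the call in every such fit, and 29 of 56, 10 of 27 and 31 of 53 kept it in these and in every other setting that tested them.

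With the replicate number as a block, 57, 26 and 54 members were called in the 3 comparisons, in place of 56, 27 and 53, and 2 of the 9 arrays correlated best with an array of their own number.

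Single genes turned round as follows. With quantile normalization DAP3 (0.013) and MRPL20 (0.031) were above Ctrl-sh in C-Myc-sh. With averaged probe sets, so were DAP3 (0.18), GADD45GIP1 (0.24), MRPL20 (0.22), MRPL39 (0.67) and MRPS14 (0.015). Without _s_at and _x_at probe sets, so were MRPL20 (0.94), MRPL35 (0.047), MRPL39 (1.52), MRPS14 (0.27) and MRPS16 (0.42). In Slc7a5-sh against Ctrl-sh, averaged probe sets gave 0.13 for MALSU1 and -0.22 for MRPS30, and leaving out _s_at and _x_at probe sets gave 0.059 for MALSU1, 0.17 for MRPL4 and -0.25 for YY1. In C-Myc-sh against Slc7a5-sh, averaged probe sets gave 0.10 for MRPL19, 0.39 for MRPL23, 0.77 for MRPL39, 0.15 for MRPS14, 0.48 for MRPS31 and 0.14 for POLRMT. Leaving out _s_at and _x_at probe sets gave 1.54 for MRPL39, 0.26 for MRPL42, 0.47 for MRPS14 and 0.33 for MRPS15. The cause was not tested.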

Other observations

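The genes that share a promoter region with members, on the opposite strand and with start sites within 1000 bases, were looked up in RefSeq after the values were seen. Such a neighbour was found for 18 of the 67 members with a promoter sequence (26.9%), against 10.4% of all 15842 genes. MRPL46 and MRPS11 face each other at 320 bases: MRPL46 fell by 0.29 in C-Myc-sh and rose by 0.44 in Slc7a5-sh, while MRPS11 had -0.17 and 0.02 and was not called. Of 15 neighbours that are not members, 6 fell and 4 rose in C-Myc-sh against Ctrl-sh, where 26.2% and 28.7% of all tested genes did, with a median log2 change of -0.07. SKA3, a kinetochore protein gene that faces MRPL57, fell by 1.36, and MRPL57 by 0.62. PTCD2, which faces MRPS27, fell by 0.68, and MRPS27 by 0.71. ZNF189, a zinc finger gene that faces MRPL50, rose by 0.56, while MRPL50 fell by 0.19, a call that was lost in 7 of the 9 fits that left out 1 array (-0.21 to -0.16). In Slc7a5-sh against Ctrl-sh 1 neighbour fell and 3 rose, where 11.0% and 14.3% of all tested genes did.

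Probe sets with several symbols were read for the genes that the rule left out. The one shared by MRPS24 and the read-through gene URGCP-MRPS24 had a log2 change of -0.30 in C-Myc-sh (limma adjusted p = 0.000365) and 0.07 in Slc7a5-sh. The one shared by MRPL53 and CCDC142 had -0.25 in C-Myc-sh (limma adjusted p = 0.0246) and 0.24 in Slc7a5-sh (adjusted p = 0.0623).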
